A study of Mus musculus with 59 samples.

Results

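The genes described here are the 55 mouse members of cytochrome P450 families 2 and 3, out of 24972 genes listed in each of 4 expression tables. They were chosen by symbol alone, as every symbol made of Cyp, the family number, a single subfamily letter and a gene number, and no measured value entered the choice. Family 2 has 48 of the genes and family 3 has 7. They fall into 14 subfamilies, with 15 genes in Cyp2c, 9 in Cyp2d, 7 in Cyp2j, 7 in Cyp3a, 5 in Cyp2b, 4 in Cyp2a and a single gene in each of the 8 others. The 5 further symbols of these families that do not have this form (Cyp2ab1, Cyp2c53-ps, Cyp2d37-ps, Cyp3a41a and Cyp3a41b) were left out.

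RNA was sequenced in 59 libraries of 17 groups, to compare inhibition or knockdown of ATP citrate lyase (ACLY), the enzyme that makes cytosolic acetyl-CoA from citrate, with its absence. Livers and soleus muscles came from male wild type C57BL/6 mice of 41 weeks, which by the study's methods had fasted for 16 h. The HC mice had received hydroxycitrate, an ACLY inhibitor, with a standard diet from 20 weeks of age, and the untreated (Ut) mice had the standard diet alone, with 5 libraries for each group and tissue. AML12, a line of immortalised mouse hepatocytes cultured with dexamethasone in all groups, received siRNA against Acly (siAcly) or control siRNA (siC). Each siRNA was combined with 1 mM hydroxycitrate (HC), 10 µM SB-204990 (SB) or 30 µM bempedoic acid (Bemp) for 16 h, or with no inhibitor (Ut), in 3 libraries per group. Gastrocnemius muscles came from male wild type C57BL/6 mice of about 6 months. Muscle injured with 10 µM cardiotoxin was taken after 2 or 30 days from mice given HC in the diet (CTX-HC) or not (CTX), beside uninjured muscle, in 3 libraries per group. Tissue libraries hold a mixture of cells, so that fewer cells of a type and less RNA per cell cannot be told apart.

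Enzymes of these families are heme proteins of the endoplasmic reticulum that oxidise drugs, steroids, bile acids and fatty acids, with electrons passed on by the reductase POR. Most are made in hepatocytes, where the nuclear receptors CAR (Nr1i3) and PXR (Nr1i2) raise Cyp2b, Cyp2c and Cyp3a genes when foreign compounds activate them. Several mouse members are also sex-biased under the pattern of growth hormone secretion. Cyp2d9 is higher in males, and Cyp2a4, Cyp2b9, Cyp2b13, Cyp2c40, Cyp2c69 and Cyp3a44 are higher in females.

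In GENCODE vM21 (GRCm38, the mm10 build of the deposited tables), 54 of the 55 genes were found by symbol, all but Cyp2d13, and most sit in arrays of close copies. The Cyp2a, 2b, 2f, 2g, 2s and 2t array of 13 genes spans chr7:25802475-27158668, the 15 Cyp2c genes span chr19:39007019-44029208, and 8 Cyp2d genes span chr15:82370527-82794294. The 7 Cyp2j genes span chr4:96027534-96664154 and the 7 Cyp3a genes span chr5:137892932-146113287. Copies this close can share reads. Of all 50-base windows of a member's transcripts, a median of 8.12% occurred in another gene as well, and 14 members shared over 25%. Cyp2c40 (60.3%), Cyp2c69 (54.3%), Cyp2c67 (52.8%) and Cyp2c68 (43.3%) shared most with each other, so the division of reads among them is uncertain. Cyp3a13, Cyp2s1, Cyp2f2 and Cyp2r1 shared none.

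RefSeq (GRCm38.p6) gives a start site for 47 of the 55 members. The 250 bases before the start of Cyp2b9 (chr7:26173159-26173408, plus strand) and of its neighbour Cyp2b13 (chr7:26061245-26061494, plus strand) are shown because the genes had very different levels in liver and nearly the same sequence. They are identical at 248 of 250 bases (99.2%), and the 2 that differ are in capitals.
Cyp2b9: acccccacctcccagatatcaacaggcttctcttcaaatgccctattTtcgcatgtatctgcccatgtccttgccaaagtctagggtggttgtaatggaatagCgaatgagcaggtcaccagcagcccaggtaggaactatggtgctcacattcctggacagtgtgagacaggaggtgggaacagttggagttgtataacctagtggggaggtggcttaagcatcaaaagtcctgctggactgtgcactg
Cyp2b13: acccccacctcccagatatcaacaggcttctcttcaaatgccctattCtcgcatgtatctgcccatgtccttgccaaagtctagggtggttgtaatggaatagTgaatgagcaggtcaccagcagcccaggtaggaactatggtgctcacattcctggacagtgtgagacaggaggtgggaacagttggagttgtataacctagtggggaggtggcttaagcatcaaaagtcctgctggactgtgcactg

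The next 3 promoters belong to Cyp3a11, the main Cyp3a enzyme of adult liver (chr5:145879855-145880104), Cyp3a16, a fetal and neonatal form (chr5:145469724-145469973), and the female-biased Cyp3a44 (chr5:145805875-145806124), all on the minus strand. They are shown because these genes varied together in AML12. Capitals mark TGTTTAC, a form of the FOXA motif, and CAAAGTCCA, a form of the HNF4A motif, searched on both strands. All 3 windows hold TGTTTAC, while CAAAGTCCA is in those of Cyp3a11 and Cyp3a16 and these letters are not in that of Cyp3a44. The RefSeq start of Cyp3a11 lies 110 bases inside its GENCODE gene. The last 110 bases of its window, with CAAAGTCCA, are thus within that gene. For Cyp3a16 and Cyp3a44 the RefSeq and GENCODE starts are the same.
Cyp3a11: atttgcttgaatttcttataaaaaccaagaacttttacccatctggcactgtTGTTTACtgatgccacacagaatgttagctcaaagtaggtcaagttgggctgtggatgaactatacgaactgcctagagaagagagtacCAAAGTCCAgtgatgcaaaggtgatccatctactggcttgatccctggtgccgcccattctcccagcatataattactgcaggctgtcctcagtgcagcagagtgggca
Cyp3a16: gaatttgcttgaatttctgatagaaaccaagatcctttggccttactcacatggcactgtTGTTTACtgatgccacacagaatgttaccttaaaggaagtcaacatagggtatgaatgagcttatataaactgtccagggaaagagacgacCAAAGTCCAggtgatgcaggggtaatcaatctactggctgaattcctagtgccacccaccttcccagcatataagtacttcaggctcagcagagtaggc
Cyp3a44: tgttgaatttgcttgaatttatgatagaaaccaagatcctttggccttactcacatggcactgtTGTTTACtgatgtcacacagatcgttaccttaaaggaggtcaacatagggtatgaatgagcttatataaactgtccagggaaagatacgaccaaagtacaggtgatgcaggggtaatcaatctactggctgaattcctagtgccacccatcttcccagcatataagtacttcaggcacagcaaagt

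The HNF4A form stood in the same 250-base window of 8 of the 47 members and of 0.45% of 27025 genes with a promoter, the FOXA form in 6 members and 3.54% of genes. The other letters searched, on both strands, were TGTTTGC for FOXA (1 member, 4.93% of genes), TTCNNNGAA for STAT (2 members, 8.13% of genes) and TTGCGCAA for C/EBP (0 members, 0.19% of genes). A match is a stretch of letters and no evidence of binding, and members of an array share sequence by descent. The windows around CAAAGTCCA (capitals) in 4 Cyp2c genes that share many windows and in the more distant Cyp2c70, all on the minus strand, show both degrees of likeness. They lie at chr19:39812831-39812879 (Cyp2c40), chr19:39886816-39886864 (Cyp2c69), chr19:39649139-39649187 (Cyp2c67), chr19:39741150-39741198 (Cyp2c68) and chr19:40187322-40187370 (Cyp2c70).
Cyp2c40: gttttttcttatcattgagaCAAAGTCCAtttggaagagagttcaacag
Cyp2c69: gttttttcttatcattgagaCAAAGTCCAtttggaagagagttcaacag
Cyp2c67: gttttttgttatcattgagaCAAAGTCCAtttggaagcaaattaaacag
Cyp2c68: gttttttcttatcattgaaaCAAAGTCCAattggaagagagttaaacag
Cyp2c70: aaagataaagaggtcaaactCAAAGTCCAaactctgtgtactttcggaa

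All values below are normalised counts, which the study's methods describe as normalised by the DESeq2 median of ratios. The authors computed them for each of the 4 tables apart, so levels were not tested across tables. Values near that of a single read differed between genes of a library, such as 0.85 for Nr1h4 and 0.922 for S100a8 in soleus HC replicate 4. They are thus not whole reads divided by 1 factor per library. Depth was estimated roughly, from the commonest value near that of a single read in each library. It was 7660000 to 13020000 reads in liver, 8970000 to 11270000 in soleus, 7420000 to 16200000 in AML12 and 16050000 to 34850000 in gastrocnemius. Liver held the families in number: 36 members averaged at least 10 normalised counts there. The count at 10 or more was 15 in AML12, 6 in soleus and 6 in gastrocnemius. Members at 0 in all libraries numbered 8 in liver, 16 in AML12, 19 in soleus and 14 in gastrocnemius. Differences were tested with limma on log2(value + 1) over all genes with at least 10 normalised counts in as many libraries as the smallest group has, with Benjamini-Hochberg adjustment over those genes. The changes below are on that log2 scale, which understates changes of low genes.

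In liver, no member changed with HC by the adjusted test. Per kilobase of exon, averaged over all 10 livers, Cyp2e1, which oxidises ethanol and acetone, was far above the rest at 39810 normalised counts. Cyp2d26 (6216), the male-biased testosterone hydroxylase Cyp2d9 (6015), the periportal naphthalene-oxidising Cyp2f2 (5375), Cyp2d10 (4893), Cyp3a11 (3085) and Cyp3a25 (2569) followed. This order depends on the exon length used, which was 5093 bases for Cyp3a11, 2658 for Cyp2d9, 1792 for Cyp2d26 and 1648 for Cyp2d10. Before division by length, Cyp2d9 (15990) and Cyp3a11 (15710) averaged more counts than Cyp2d26 (11140). The members with the lowest unadjusted p were the abundant Cyp2d9, which was below every Ut mouse in all 5 HC mice, and the low, female-biased Cyp2b9, which was above every Ut mouse in 4 of 5.

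By limma, 0 of 11497 genes (0%) passed an adjusted p of 0.05 in liver, and 0 of the 34 members tested, with a lowest adjusted p among members of 0.995. At an unadjusted p under 0.05 there were 488 genes (4.24%) and 8 of the 34 members (23.5%), 5 of them higher and 3 lower in HC. The cut-offs used in the study, an unadjusted p of 0.05 with a log2 change of 1, were applied here to the limma results. They held 64 genes (0.557%) and 3 members, Cyp2b9, Cyp2a22 and Cyp2c69. The study applied them to DESeq2 results, so these counts are not those of the study. The ranges of HC and Ut mice did not overlap for 71 genes (0.618%) and 2 members (5.88%), Cyp2d9 and Cyp2j5. Members share arrays and reads, so their counts are not independent of each other. The median change of the 34 members was 0.03, against −0.01 for all genes.

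**Figure D1:**
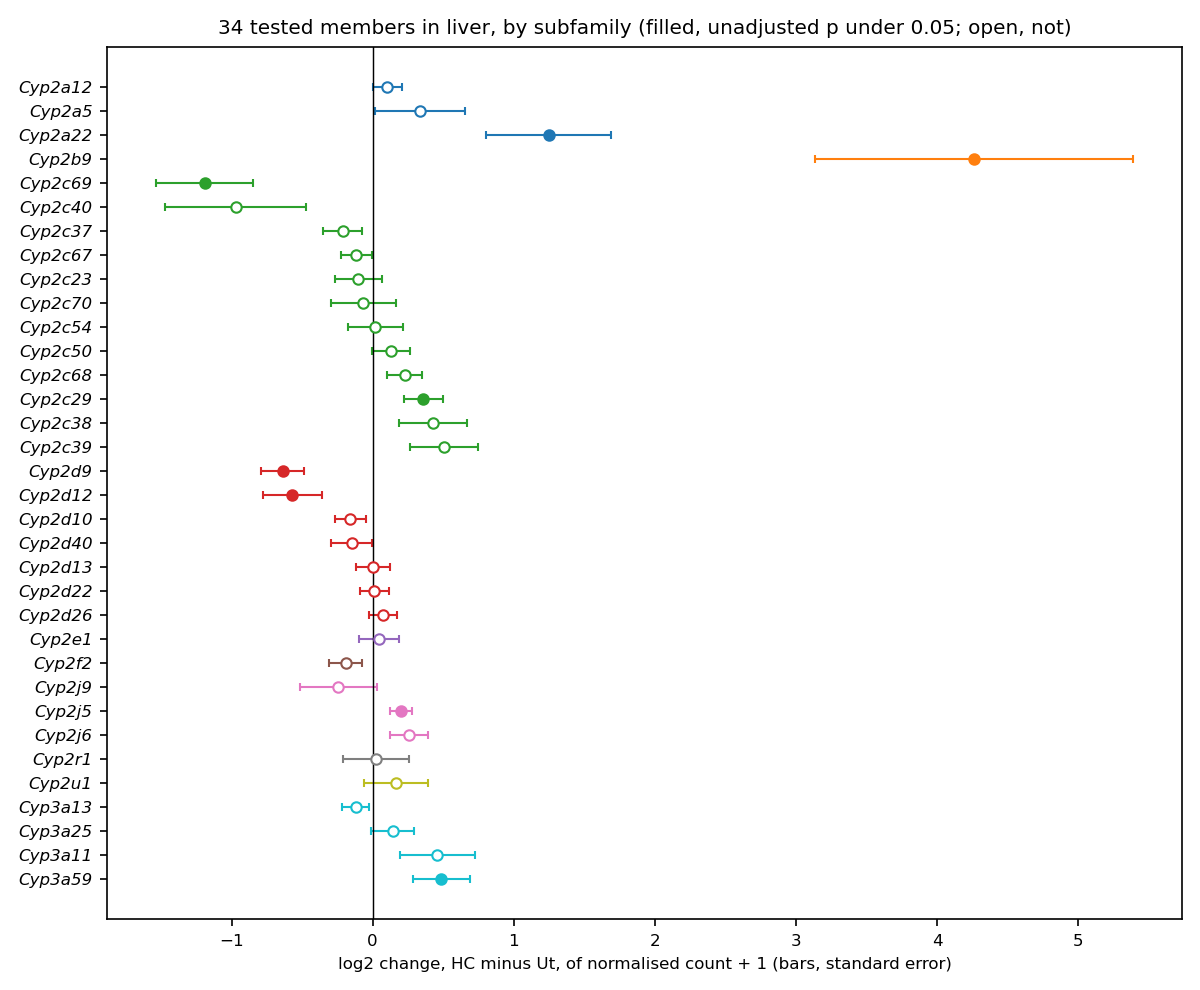
Log2 change, HC minus Ut, of the 34 members tested in liver, with the standard error as bars, grouped and coloured by subfamily. Filled points have an unadjusted p under 0.05 and open points do not. Cyp2b9 lies far to the right at 4.26, and all members but Cyp2b9, Cyp2a22 and Cyp2c69 lie within 1 of 0.

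Of the 5 Cyp2b genes only Cyp2b9 passed the filter on low values. Cyp2b9 (chr7:26173411-26210661) had 369, 1512, 195, 1769 and 13.6 normalised counts in HC mice 1 to 5, against 7.20, 22.1, 28.4, 2.75 and 50.97 in the 5 Ut mice. HC mice 1 to 4 lay above every Ut mouse, and HC mouse 5 lay inside the Ut range. The log2 change was 4.26 (SE 1.13, unadjusted p = 0.0023, adjusted p = 0.995 in limma; exact two-sided permutation p = 0.0317 on the log2 values, 252 splits), and it stayed between 3.63 and 5.37 when any mouse was left out.

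Cyp2b10, the usual marker gene of CAR activation, had 2.03, 57.04, 4.69, 68.8 and 0 in HC mice, against 2.40 to 5.54 in Ut mice. It was above the Ut range in HC mice 2 and 4 only, the 2 mice with the highest Cyp2b9, and was too low in the others to be tested. Cyp2b13 was at 1.02, 4.84, 0, 5.16 and 0 in HC mice and at 0 in all Ut mice. Cyp2b9 shared 10.8% of its windows with Cyp2b13, so a part of these few reads may belong to either. Cyp2b19 and Cyp2b23 were at 0 in all 10 livers.

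All 3 Cyp2a members tested were higher in HC on average, with unadjusted p under 0.05 for Cyp2a22 alone. Cyp2a22 had 94.2, 190, 149, 454 and 48.4 in HC mice, against 59.98, 57.7, 74.9, 42.0 and 68.6 in Ut mice. HC mice 1 to 4 were again above the Ut range and HC mouse 5 was not. The log2 change was 1.25 (SE 0.44, unadjusted p = 0.0145, adjusted p = 0.995, exact permutation p = 0.0476), and it was 0.83 without HC mouse 4.

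Cyp2a22 shared 20.2% of its windows with Cyp2a12, a steroid and bile acid hydroxylase that averaged 5702 ± 712 in HC and 5298 ± 515 in Ut mice (SD, n = 5 each), with a change of 0.10 (SE 0.10). Cyp2a5, the coumarin hydroxylase, had 3425, 3731, 4426, 6750 and 1649 in HC mice, against 2822, 2961, 4819, 1839 and 2645 in Ut mice. HC mouse 4 was highest and HC mouse 5 lowest of all 10, and the change was 0.34 (SE 0.32). Cyp2a4, a female-biased testosterone hydroxylase, was low, with 1.02, 18.4, 11.7, 47.2 and 3.56 in HC mice and 1.04 to 7.84 in Ut mice. It exceeded the Ut range in HC mice 2, 3 and 4 and could not be tested. Cyp2a4 shared 36.1% of its windows with Cyp2a5, which also peaked in HC mouse 4.

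**Figure D2:**
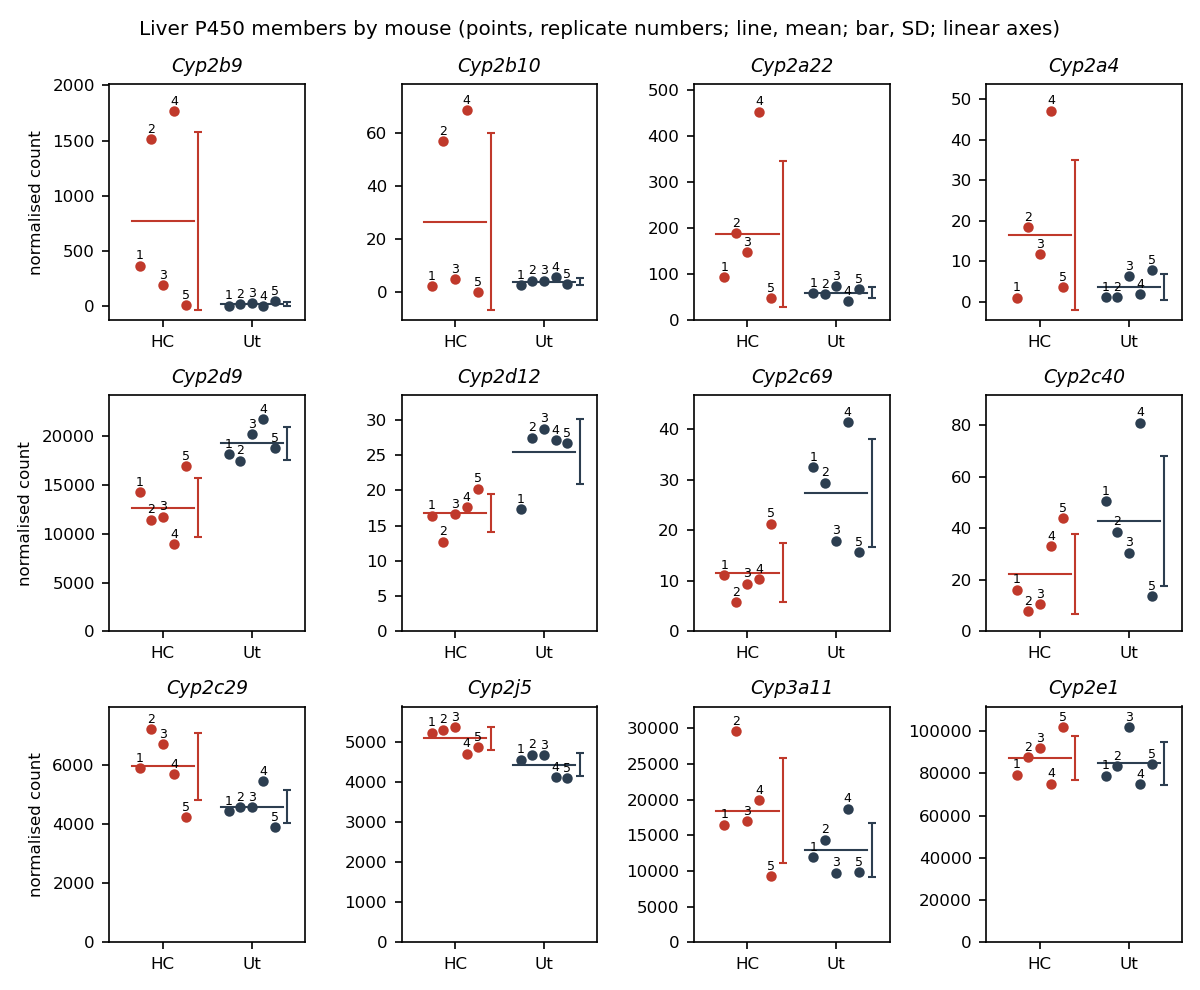
Normalised counts of 12 members in each liver, HC mice left and Ut mice right, on linear axes that differ between panels. Points carry the replicate number, lines are means and bars are SD (n = 5 each). HC mice 2 and 4 are the highest for Cyp2b9 and Cyp2b10, HC mouse 5 is nearest the Ut mice for Cyp2d9, and the groups do not overlap for Cyp2d9 and Cyp2j5.

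Of the 9 Cyp2d genes 7 were tested, 3 higher and 4 lower in HC. Cyp2d9 (chr15:82433437-82456845) had 14257, 11464, 11769, 8935 and 16925 in HC mice, against 18226, 17525, 20203, 21768 and 18816 in Ut mice. Every HC mouse was below every Ut mouse, with HC mouse 4 lowest and HC mouse 5 nearest to the Ut mice. The change was −0.64 (SE 0.15, unadjusted p = 0.00103, adjusted p = 0.995 in limma), and the exact permutation p of 0.00794 is the smallest that 5 against 5 mice allow. Leaving out any mouse kept the change between −0.75 and −0.52. Cyp2d9 shared 21.8% of its windows with other genes, at most 6.76% with any single gene, Cyp2d12.

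Cyp2d12 was low and went the same way, with 16.4, 12.7, 16.6, 17.7 and 20.2 in HC mice and 17.3, 27.4, 28.7, 27.1 and 26.7 in Ut mice (−0.57, SE 0.21, unadjusted p = 0.0173, adjusted p = 0.995, exact permutation p = 0.0238). The overlap came from Ut mouse 1 alone. Among the other Cyp2d genes, Cyp2d26, the highest of the subfamily per kilobase, averaged 11430 ± 1282 in HC and 10850 ± 778 in Ut mice (SD, n = 5 each). Cyp2d10, Cyp2d13, Cyp2d22 and Cyp2d40 had changes between −0.16 and 0.01. The subfamily sum was 29140 to 39580 in HC and 41470 to 45960 in Ut mice, without overlap. It made up 17.9% and 21.9% of all members' counts on average. The sum includes Cyp2d9 and averaged 36030 in HC and 42980 in Ut mice, beside Cyp2d9 means of 12670 and 19310. It thus mostly restates Cyp2d9 and does not show a fall of the subfamily as a whole.

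The Cyp2c subfamily, mostly epoxygenases of arachidonic and linoleic acid, was divided, with 6 of the 12 members tested higher and 6 lower in HC. The abundant Cyp2c29 had 5897, 7228, 6704, 5707 and 4241 in HC mice, against 4457, 4578, 4570, 5472 and 3891 in Ut mice. HC mice 1 to 4 were above all Ut mice and HC mouse 5 was not, and the change of 0.36 (SE 0.14, unadjusted p = 0.0214, adjusted p = 0.995) had an exact permutation p of 0.0714. Cyp2c37 and Cyp2c50 were highest of the subfamily per kilobase (1939 and 1928), and Cyp2c50 averaged 5871 ± 862 in HC and 5382 ± 977 in Ut mice (SD, n = 5 each). Cyp2c39, a retinoic acid hydroxylase, was at 31.2 to 84.01 in HC and 26.5 to 43.2 in Ut mice (0.50, SE 0.24, unadjusted p = 0.0557).

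Cyp2c69 and Cyp2c40, female-biased in other work, were low and lower in HC, the opposite direction to Cyp2b9. Cyp2c69 had 11.1, 5.83, 9.43, 10.4 and 21.3 in HC mice, against 32.5, 29.4, 17.9, 41.4 and 15.7 in Ut mice (−1.19, SE 0.34, unadjusted p = 0.00427, adjusted p = 0.995, exact permutation p = 0.0238). Cyp2c40 had 16.2, 7.78, 10.6, 33.2 and 44.0 in HC mice, against 50.5, 38.8, 30.6, 81.1 and 13.7 in Ut mice (−0.97, SE 0.50, unadjusted p = 0.0744). HC mouse 5 was the only HC mouse inside the Ut range of Cyp2c69. These 2 genes shared over 50% of their windows with others, above all each other and the much more abundant Cyp2c67 (2450 ± 418 in HC and 2625 ± 87 in Ut mice), so their few reads are uncertain in origin.

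The Cyp3a subfamily was led by Cyp3a11, the usual target gene of PXR, at 16498, 29603, 16979, 19912 and 9304 in HC mice, against 11984, 14415, 9776, 18768 and 9868 in Ut mice. HC mouse 2 was highest and HC mouse 5 lowest of all mice, and the change of 0.46 (SE 0.26, unadjusted p = 0.107, exact permutation p = 0.198) was within the spread. Cyp3a59 had 228, 272, 329, 445 and 310 in HC mice, against 219, 171, 326, 256 and 165 in Ut mice (0.49, SE 0.20, unadjusted p = 0.0325, adjusted p = 0.995, exact permutation p = 0.0794). It shared 26.8% of its windows with Cyp3a25, which was at 5061 to 5777 in HC and 3227 to 6476 in Ut mice (0.14, SE 0.15). Cyp3a13 had a difference of −0.12 (SE 0.10). Cyp3a16, Cyp3a44 and Cyp3a57 stayed at or under 10.7 in every liver and were not tested.

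Cyp2j5 (chr4:96628773-96664154), an arachidonic acid epoxygenase of liver and kidney, had 5235, 5308, 5364, 4711 and 4869 in HC mice, against 4563, 4685, 4673, 4132 and 4107 in Ut mice. Every HC mouse was above every Ut mouse by a small margin. The change was 0.20 (SE 0.08, unadjusted p = 0.024, adjusted p = 0.995 in limma, exact permutation p = 0.00794). Cyp2j6 (0.26, SE 0.13) and Cyp2j9 (−0.24, SE 0.27) overlapped between groups, and Cyp2j8, Cyp2j11, Cyp2j12 and Cyp2j13 were at or under 3.04 in every liver.

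Of the subfamilies with a single gene, Cyp2e1 was at 75118 to 101941 in HC and 74972 to 101837 in Ut mice (0.04, SE 0.14). It made up 43.3% of all members' counts in HC and 43.0% in Ut mice on average. Cyp2f2 was at 8259 to 13123 in HC and 10627 to 12261 in Ut mice (−0.19, SE 0.12). Cyp2r1, a vitamin D hydroxylase, and Cyp2u1, a fatty acid hydroxylase, had differences of 0.02 (SE 0.23) and 0.16 (SE 0.23). Cyp2g1 and Cyp2s1 were at or under 8.75, and Cyp2t4 and Cyp2w1 at 0 in all livers.

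Some mice of both groups held the extreme value for several genes. HC mouse 4 had the highest value of all 10 mice for Cyp2b9, Cyp2b10, Cyp2a22, Cyp2a4, Cyp2a5, Cyp2c38, Cyp2c39 and Cyp3a59, and the lowest for Cyp2c23, Cyp2c67, Cyp2d9, Cyp2d10 and Cyp2d40. HC mouse 5 lay inside the Ut range for Cyp2b9, Cyp2a22 and Cyp2c29. Ut mouse 5 had the lowest value for Cyp2a12, Cyp2c29, Cyp2c39, Cyp2c50, Cyp2c54, Cyp2c70, Cyp2d13, Cyp2d22, Cyp2j5, Cyp2j6, Cyp3a25 and Cyp3a59. Ut mouse 5 also had the highest for Cyp2d40 and Cyp2r1, so extreme values were not confined to treated mice. This is a description of 5 mice per group, and the genes were picked after their values were seen.

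Genes around the families were read by the same test. All 11 genes of a list of male-biased liver genes, Cyp2d9 among them, were lower in HC. Of these, 7 had an unadjusted p under 0.05 in limma, beside 4.24% of all genes, and 0 had an adjusted p under 0.05. Their median change was −0.57 against −0.01 for all genes. The list was written with earlier results of these data known, so its shared direction is no separate support for the fall of Cyp2d9. The oxysterol hydroxylase Cyp7b1 had 1156, 692, 665, 573 and 1949 in HC mice, against 2307, 1664, 1518, 1362 and 2025 in Ut mice (−0.95, SE 0.29, unadjusted p = 0.00542). Here too HC mouse 5 was the one within the Ut range. Of 9 members listed as female-biased, 4 could be tested, and Cyp2b9 and Cyp2c39 were higher while Cyp2c40 and Cyp2c69 were lower.

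Of 26 regulators of these genes 25 were tested and 0 passed the adjusted test, with 12 higher and 13 lower in HC. Nr1i3 was at 1417 to 1845 in HC and 1345 to 1993 in Ut mice, Nr1i2 at 608 to 977 in HC and 698 to 1147 in Ut mice, and Hnf4a at 7017 to 9167 in HC and 7084 to 9757 in Ut mice, with changes of −0.01, −0.18 and −0.11. The transcription factor Foxa2 had the lowest unadjusted p of the list, with 251 to 425 in HC and 168 to 257 in Ut mice (0.60, SE 0.15, unadjusted p = 0.00148, adjusted p = 0.995). Cux2, a female-biased repressor, and Bcl6, a male-biased repressor, were both lower on average (−1.30, SE 0.61, and −1.11, SE 0.54). Por was at 3303 to 6107 in HC and 4997 to 7559 in Ut mice (−0.27, SE 0.17), and the other 5 electron donor genes were higher in HC, with 0 of 6 at an unadjusted p under 0.05. The 10 genes of heme synthesis were divided 5 to 5.

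Of 33 phase 2 and transport genes that CAR and PXR can raise 32 were tested, and 20 were higher and 12 lower in HC, with 0 passing the adjusted test. Gstp1 had the lowest adjusted p of the whole table, 0.514 (−1.09, SE 0.20), and was lower in HC. Markers of other cells had directions of their own, with overlapping ranges. All 9 stellate cell or fibroblast markers were higher in HC (summed 1992 to 4565 in HC and 1688 to 2410 in Ut mice), as were 5 of 5 cholangiocyte markers tested (534.5 to 1334 in HC and 466.3 to 727.5 in Ut mice). Periportal hepatocyte markers were lower for 9 of 10 (68110 to 93740 in HC and 87250 to 115900 in Ut mice), while hepatocyte markers as a whole were divided 7 to 7. Their part in the P450 differences was not tested.

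In AML12, levels were low and varied between libraries of the same group. Over the 4 treatments together, 0 of the 20 members tested changed with siAcly by the adjusted test, and 4 were higher and 16 lower, with a median change of −0.62 against −0.01 for all genes. With the library number series described below in the fit, the median was −0.21 with all libraries and −0.15 without 2 libraries of doubtful label. Per kilobase of exon, the most abundant were Cyp2j6 (179), Cyp3a13 (154), Cyp2c68 (97.4), Cyp2s1 (94.6), an enzyme known from epithelia outside the liver, and Cyp2d22 (69.97). Cyp2e1, the leading gene of liver, was at or under 4.03 in all libraries but 1, siC Bemp replicate 3, which had 55.4.

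The knockdown was checked first. Acly was at 215 to 599 in the 12 siAcly libraries and at 2576 to 3860 in 11 of 12 siC libraries, and the library labelled siC Bemp replicate 1 had 404, within the siAcly range. The library labelled siC Ut replicate 3 had Cyp1a1 at 917, where siC Ut 1 and 2 had 195 and 200 and the other Bemp libraries of both siRNAs had 678 to 1255. Both are called by their labels below. Leaving out both gave 0 members called by limma in every contrast, as with all libraries.

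With all libraries, 336 genes rose and 250 fell with siAcly over the 4 treatments (4.77% of 12296 tested), and 2754 had an unadjusted p under 0.05 (22.4%). Of the members, 0 passed the adjusted test and 0 of 20 had an unadjusted p under 0.05. Within each treatment, the share of genes called was 0.187% in Ut, 0.00813% in HC, and 0% in SB and in Bemp. It was 0% for each of the 3 inhibitors against Ut in siAcly cells, 0% for each in siC cells, and 0% for the difference between siAcly and siC cells in the effect of each inhibitor. In these 13 contrasts limma called 0 members, and 0 members had an unadjusted p under 0.05. With the number series in the fit limma again called 0 members in these 13 contrasts, with all libraries and without both doubted ones. At an unadjusted p under 0.05 there were then 0 to 8 members with all libraries, the most for Bemp against Ut in siC cells, which holds both doubted libraries (15.1% of all genes), where 1 member was left without them. Without them there were 0 to 4 members, the most for siAcly against siC in Bemp (12.5% of all genes). With all libraries and no series, the genes called at an unadjusted p under 0.05 ranged from 42 (HC against Ut in siC cells) to 2332 (siAcly against siC in Ut).

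Cyp3a13 (chr5:137892932-137921619) came nearest, with 248, 496 and 1505 as the lowest, median and highest of the 12 siAcly libraries, against 203, 319 and 629 of the 12 siC libraries. The highest, siAcly Ut replicate 3, lay far above the others. The change was 0.52 (SE 0.26, unadjusted p = 0.055, adjusted p = 0.234). The most negative averages, of Cyp3a11 (−2.002, SE 1.15), Cyp3a44 (−1.46, SE 1.29) and Cyp2d26 (−1.22, SE 0.86), came with standard errors of 0.86 to 1.29, and these genes were high in some libraries of a group and near 0 in others. With the number series in the fit and without both doubted libraries they were −1.04 (SE 0.37), −0.30 (SE 0.33) and −0.73 (SE 0.32).

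Library numbers in the sample titles ordered these highs and lows. Libraries fall into those numbered below 24, whose number leaves a remainder of 1 or 2 when divided by 3 (7 each without the doubted libraries), 1 library with remainder 0 (siAcly Ut replicate 3), and 7 numbered 81 to 87. Both siRNAs are in each of the 3 series, with 3 or 4 libraries. What the numbers stand for is not given in the sources used here, and the series were formed after the data were seen. Leaving out both doubted libraries, ranges of remainder 1 and remainder 2 did not overlap for 14.3% of all genes, and among the 20 members 9 were higher in remainder 1 and 1 lower. Against numbers 81 to 87, remainder 1 did not overlap for 17.2% of genes and was higher in 16 members, and remainder 2 did not overlap for 21.4% of genes and was higher in 10. In neither was any member lower. Some members passed the filter on low values only through libraries where they were high. Cyp3a44 was at most 7.76 in remainder 2 and 2.36 in numbers 81 to 87. Cyp3a25 was at most 2.37 and 1.67 there, and Cyp2c70 at most 3.45 and 1.27. The filter thus set the direction of such members, and the member counts cannot be weighed against the shares of all genes.

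**Figure D3:**
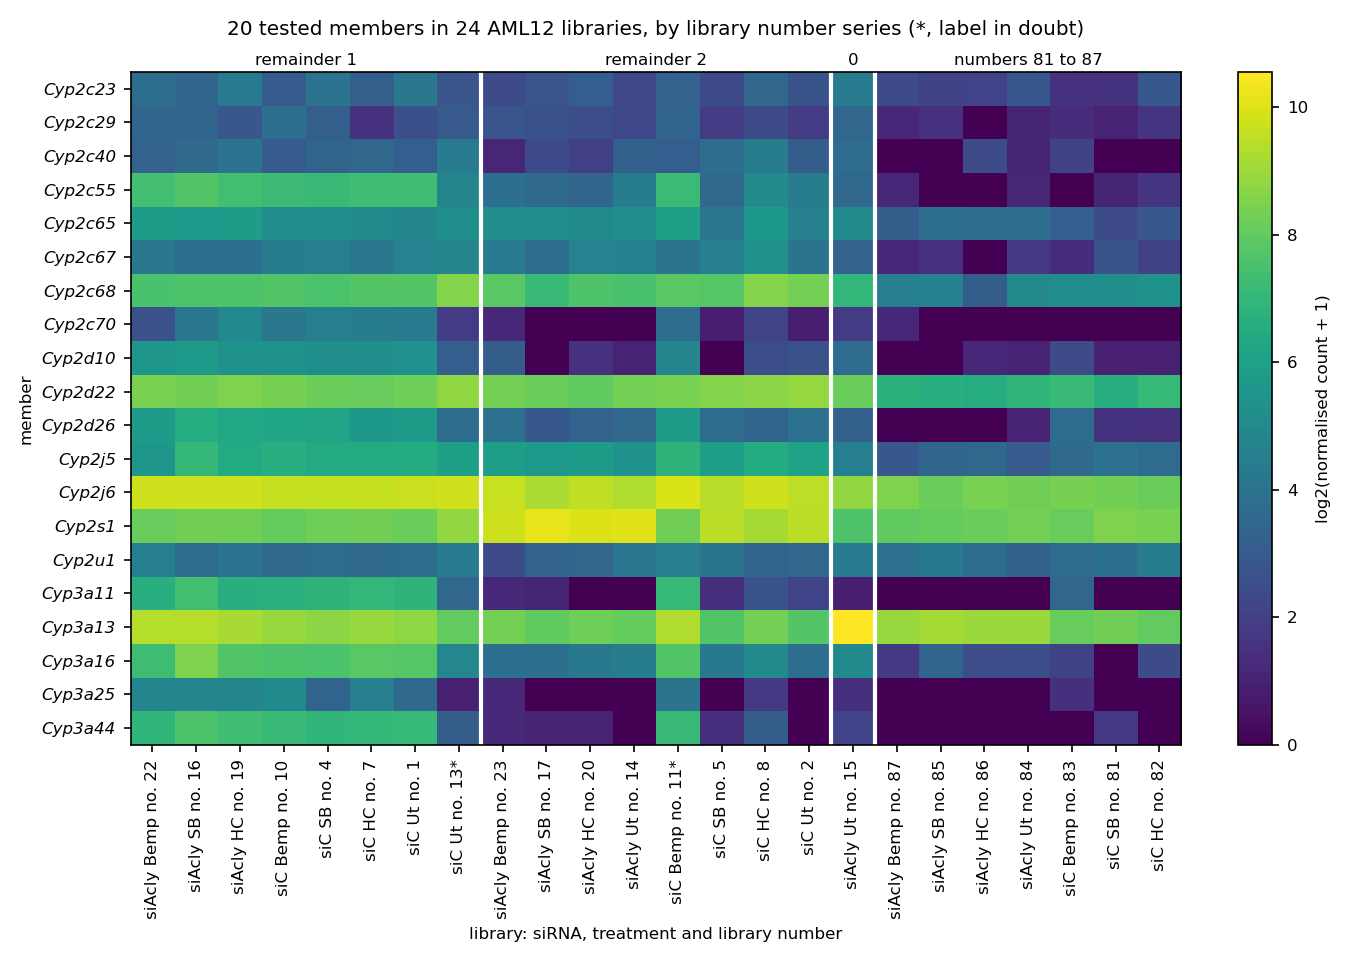
Log2(normalised count + 1) of the 20 members tested in the 24 AML12 libraries, ordered by library number series and, within it, by siRNA. A star marks the libraries whose label is in doubt. The Cyp3a rows are bright in the 7 libraries of remainder 1 without a star and in number 11. Except for Cyp3a13, they are dark in number 13, which is in remainder 1, and in most others.

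Cyp3a11 was at 96.4 to 161 in the remainder 1 libraries, 0 to 5.59 in remainder 2 and 0 to 10.1 in numbers 81 to 87. Cyp3a16 was at 152 to 370, 13.03 to 32.6 and 0 to 9.46 in the same order, and Cyp3a44 at 121 to 193, 0 to 7.76 and 0 to 2.36. These ranges leave out both doubted libraries. The 3 genes whose promoters are printed above were thus high in the same libraries. The library labelled siC Bemp replicate 1 (number 11, remainder 2) went with remainder 1, with 132, 208 and 137. The library labelled siC Ut replicate 3 (number 13, remainder 1) did not, with at most 10.1, 28.9 and 7.55. Cyp2c55 (141 to 210 in remainder 1 and at most 29.9 in both other series) and Cyp2d26 (48.0 to 91.6, and at most 14.7 in both other series) had the same pattern. Cyp2s1 ran the other way, at 265 to 311 in remainder 1, 555 to 1168 in remainder 2 and 251 to 364 in numbers 81 to 87. The cholangiocyte marker Krt19, the only one of its list examined by series, was highest in the same series. Krt19 was at 7181 to 11800, 13190 to 23990 and 9416 to 13540, and its part was not tested. Cyp2c68 was at 186 to 213.5 and 136 to 391.5 in remainders 1 and 2 and at 7.54 to 42.4 in numbers 81 to 87.

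Of the hepatocyte markers, only Alb, Cps1, Apoa1, Ttr and Hnf4a were examined by series, and the others were not. Alb, Cps1 and Apoa1 were higher in remainder 1 than in both other series without overlap, and Ttr and Hnf4a were not. Alb was at 11853 to 13843 in remainder 1, 1225 to 4844 in remainder 2 and 372 to 1717 in numbers 81 to 87, and Cps1, the urea cycle enzyme, at 206.5 to 518, 0 to 6.88 and 0 to 10.6. Apoa1 was at 3722 to 8049, 58.6 to 187 and 43.8 to 138. Ttr was at 8015 to 17680 and 5538 to 9467 in remainders 1 and 2, which overlapped, and at 1273 to 3320 in numbers 81 to 87. Hnf4a differed far less, at 4819 to 5804, 4609 to 5684 and 3776 to 4861 in the same order, and at 3776 to 5871 over all 24 libraries. Nr1i2 was at 99.7 to 326, and Nr1i3 at 0 in 22 libraries and at most 1.13 in the others. What separates the series was not tested.

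With the series as a covariate and both doubted libraries left out, an alternative chosen after the data were seen in which the lone remainder 0 library has a level of its own and so adds nothing to the difference, limma called 1264 genes higher and 1237 lower with siAcly (20.3% of those tested), and 3 of the 20 members. Cyp3a13 rose by 0.53 (SE 0.11, adjusted p = 0.00202), Cyp2c65, a Cyp2c form best known from the intestine, rose by 0.62 (SE 0.17, adjusted p = 0.0155), and Cyp2c68 fell by 0.56 (SE 0.19, adjusted p = 0.0483). A share of 3 in 20 is near the background of 20.3%. With the series as a covariate and all 24 libraries, limma called only Cyp2c68, beside 15.6% of all genes (−0.59, SE 0.18, adjusted p = 0.0354). Cyp3a13 (0.44, adjusted p = 0.07) and Cyp2c65 (0.50, adjusted p = 0.0649) were not called. This fit kept both doubted libraries under their labels and in the series of their numbers, which their Cyp3a11, Cyp3a16 and Cyp3a44 values went against. It is therefore no check on the fit without them, and whether their labels or numbers are wrong was not tested.

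Within the series, Cyp3a13 was at 583 to 672 in siAcly and 424 to 491 in siC libraries of remainder 1, at 248 to 321 in siAcly and 203 to 327 in siC libraries of remainder 2, and at 482 to 569 in siAcly and 259 to 311 in siC libraries numbered 81 to 87. The siRNA groups did not overlap in the remainder 1 series and in numbers 81 to 87 (exact permutation p = 0.0286 in each, the smallest that 3 against 4 libraries allow) and did in remainder 2 (exact p = 0.371). Cyp3a13 stayed called in all 22 fits that left out a further library (0.45 to 0.61). Cyp2c65 was at 51.1 to 55.5 in siAcly and 27.9 to 36.7 in siC libraries of remainder 1 (exact p = 0.0286), overlapped in both other series (exact p = 0.314 and 0.0857), and lost its call without siAcly Ut replicate 1 (adjusted p = 0.0505). Cyp2c68 kept its call in 6 of 22 such fits, with adjusted p up to 0.15. These genes were picked because the fit on the same libraries called them, so the exact p-values and refits are no separate support. The share of all genes whose siRNA groups do not overlap within a series was not computed.

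**Figure D4:**
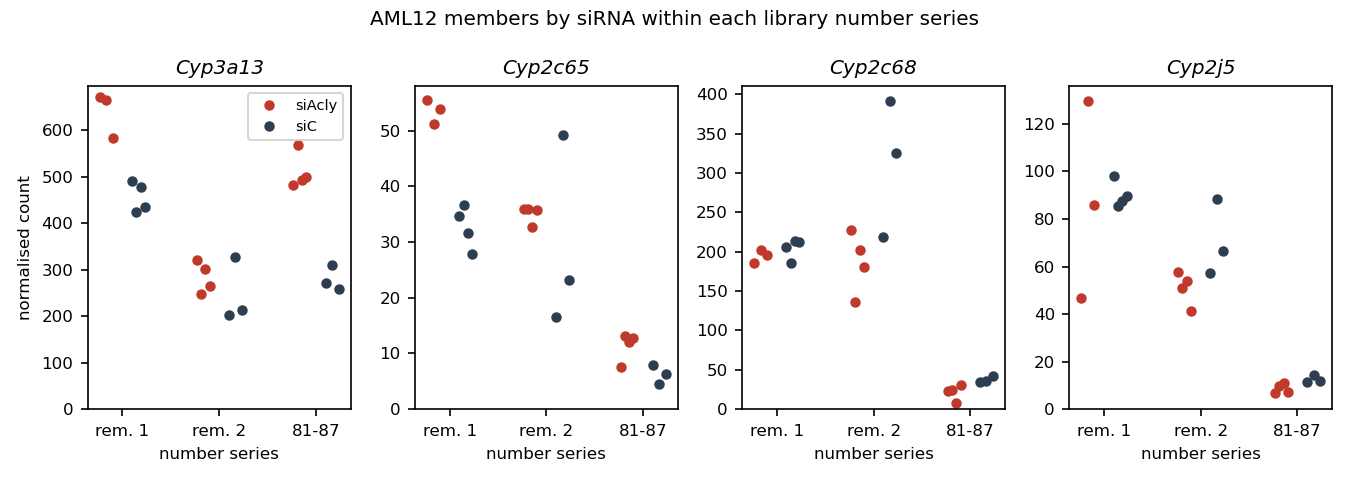
Normalised counts of Cyp3a13, Cyp2c65, Cyp2c68 and Cyp2j5 in AML12 libraries by library number series, siAcly left and siC right within each series, without both doubted libraries and the lone remainder 0 library (3 or 4 points per group). Cyp3a13 is higher in siAcly without overlap in remainder 1 and in numbers 81 to 87, and overlaps in remainder 2.

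Of the 25 regulators tested in AML12, 3 fell over the 4 treatments with all libraries, Onecut1 (−1.18, SE 0.31, adjusted p = 0.0347), Ppara, the fatty acid receptor (−0.71, SE 0.17, adjusted p = 0.0214), and Rxra, the partner of CAR, PXR and PPARα (−0.39, SE 0.08, adjusted p = 0.0104), and 0 rose. Nr1i2 (−0.36, SE 0.23), Hnf4a (0.06, SE 0.08) and Por (0.07, SE 0.09) did not pass the test. Of 29 phase 2 and transport genes, Gsta2 rose (1.20, SE 0.32, adjusted p = 0.0351) and 2 fell, Ugt1a9 (−0.99, SE 0.27, adjusted p = 0.0396) and Ugt1a6a (−0.36, SE 0.10, adjusted p = 0.0422).

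In soleus, P450 members were few and low, and 0 of the 7 tested changed with HC. Limma called 0 of 12067 genes (0%). At an unadjusted p under 0.05 there were 609 genes (5.05%) and 1 member, Cyp2f2, and 2 members were higher and 5 lower, with a median change of −0.31 against −0.01. Cyp2f2 had 20.3, 7.22, 12.5, 16.2 and 13.8 in HC muscles, against 33.0, 21.98, 15.9, 30.1 and 15.6 in Ut muscles (−0.70, SE 0.30, unadjusted p = 0.0378, adjusted p = 0.972, exact permutation p = 0.0635). The groups overlapped.

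Cyp2e1 was highest per kilobase in soleus (62.3), followed by Cyp2d22 (45.2) and Cyp2j6 (30.6). Cyp2e1 had 162, 39.0, 102, 89.3 and 193 in HC muscles, against 262, 85.01, 143, 128 and 142 in Ut muscles (−0.47, SE 0.39). Cyp2d22 was at 128 to 203 in HC and 137 to 248 in Ut muscles (−0.31, SE 0.17), and Cyp2j6 at 99.0 to 130 in HC and 92.0 to 119 in Ut muscles (0.05, SE 0.11). Cyp2d9 had 14.6, 1.03, 0, 0 and 27.5 in HC muscles, against 16.9, 0, 10.0, 8.29 and 11.1 in Ut muscles (−0.92, SE 1.05).

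Hepatocyte transcripts were present in soleus and differed between muscles. All 10 hepatocyte markers tested were lower in HC (summed 55.5 to 1235 in HC and 382 to 2219 in Ut muscles). Alb had 482, 23.5, 36.9, 16.2 and 490 in HC muscles, against 1087, 180, 339, 181 and 291 in Ut muscles. HC muscles 1 and 5, with the most Alb of their group, also had the most Cyp2d9 and Cyp2e1. Schwann cell markers were higher in HC for 5 of 5, each with an unadjusted p under 0.05. The part of such other cells or transcripts in the soleus values was not tested.

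In gastrocnemius, Cyp2u1 (chr3:131288441-131303227), a fatty acid hydroxylase that is not confined to liver, was highest per kilobase (62.7), ahead of Cyp2d22 (32.6) and Cyp2j6 (16.0). Limma called 0 of 14033 genes in each of 4 comparisons (0% for CTX against uninjured at day 2 and at day 30, and 0% for CTX-HC against CTX at day 2 and at day 30), and 0 of the 6 members tested. At day 2 of CTX against uninjured, 2095 genes (14.9%) and 1 member had an unadjusted p under 0.05. In the other 3 comparisons these were 437 genes (CTX at day 30), 1005 (CTX-HC at day 2) and 106 (CTX-HC at day 30), and 0 members. With 3 against 3 muscles an exact permutation test cannot go below 0.1. Groups of this size fail to overlap by chance at that same rate of 0.1. The share of all genes whose groups do not overlap was not computed, so the separations named below are descriptions only.

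The member was Cyp2e1, with 0.93, 7.14 and 3.27 in CTX muscles of day 2, against 2.77, 25.6 and 33.4 in uninjured muscles (−1.90, SE 0.82, unadjusted p = 0.0377, adjusted p = 0.322). Uninjured muscle 1 lay within the CTX range. In CTX-HC muscles of day 30 Cyp2e1 had 54.2, 24.9 and 55.7, against 12.1, 23.2 and 14.8 in CTX muscles (1.34, SE 0.82, unadjusted p = 0.127), without overlap. The summed hepatocyte markers were 6.36 to 130 in CTX muscles of day 2 and 9.25 to 653 in uninjured muscles, and 15.4 to 535 in CTX-HC and 3.30 to 895 in CTX muscles of day 30. Their part in the Cyp2e1 values was not tested.

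Cyp2d22 was lower without overlap at day 2, with 82.2, 80.0 and 121 in CTX against 140, 160 and 122 in uninjured muscles (−0.59, SE 0.29, unadjusted p = 0.0628, adjusted p = 0.357). At day 2 Cyp2u1 had 270, 213 and 475 in CTX muscles, against 419, 452 and 402 in uninjured muscles (−0.49, SE 0.35), and 138, 232 and 322 in CTX-HC muscles. At day 30 it had 344, 415 and 208 in CTX-HC and 271, 404 and 360 in CTX muscles. The ranges overlapped in each of these comparisons, and Cyp2f2 (0.68, SE 1.22), Cyp2j6 (−0.03, SE 0.48) and Cyp2j9 (−0.71, SE 0.54) at day 2 did too. At day 30 Cyp2f2 had 14.1, 6.33 and 6.03 in CTX muscles, against 2.82, 3.93 and 0.91 in uninjured muscles (1.48, SE 1.22), without overlap at these low levels, and in CTX-HC muscles it had 2.74, 6.08 and 60.4. Macrophage markers summed to 2026 to 10490 in CTX muscles of day 2 and 798 to 3834 in uninjured muscles, and their part in the P450 values was not tested.

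**Figure D5:**
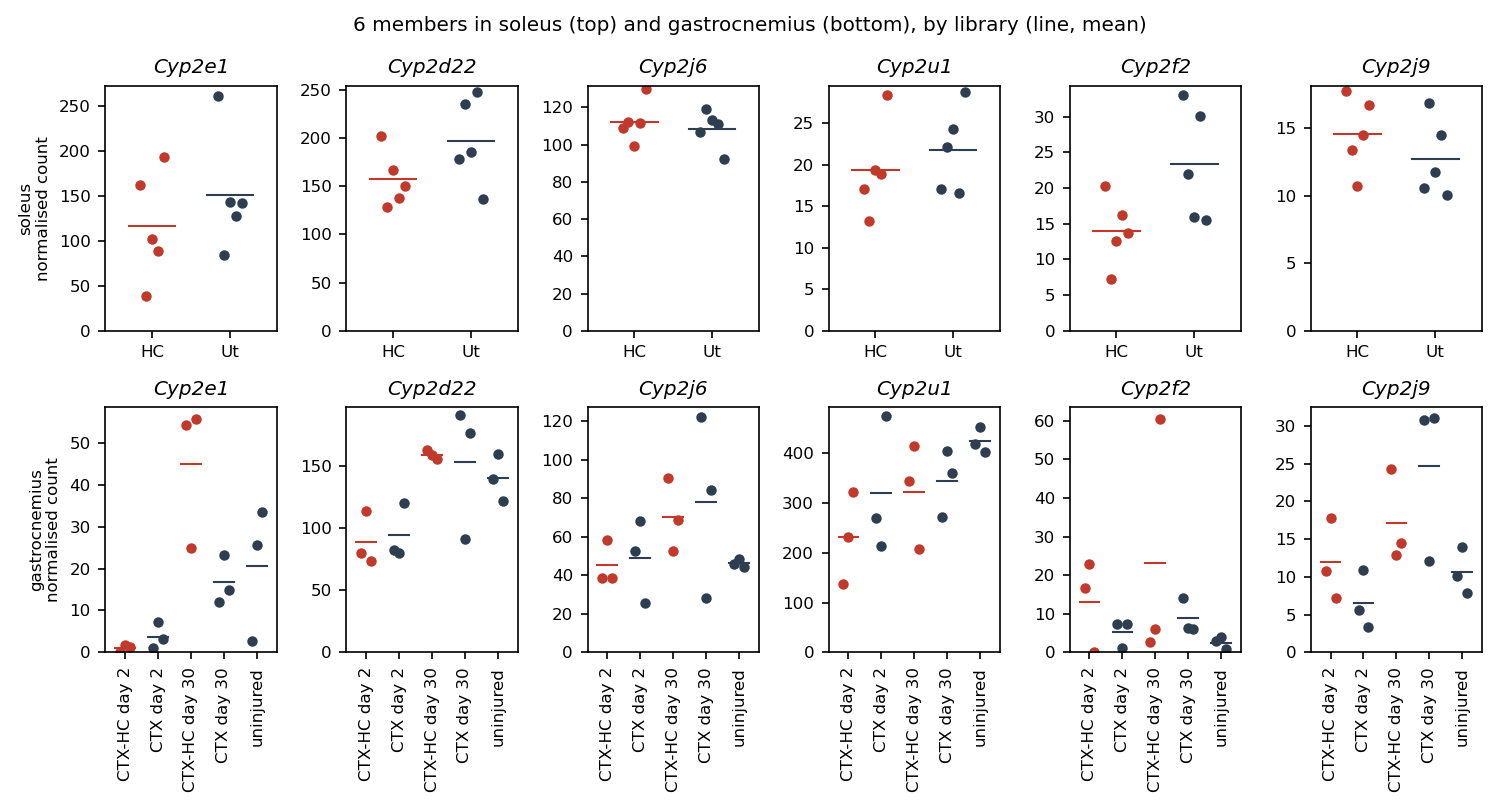
Normalised counts of 6 members in each library of soleus (top, HC left of Ut) and gastrocnemius (bottom, CTX-HC, CTX and uninjured muscle), with lines at the means and linear axes from 0. The ranges overlap in every soleus panel. Cyp2e1 in gastrocnemius is at or under 7.14 in all 6 injured muscles of day 2.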

How the data were processed

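The deposited values are a signal per gene and library. Per the labels and the study's methods, they are gene counts normalised with DESeq2 after alignment of the reads to mm10 with a STAR-based pipeline. Each of the 4 tables was normalised apart. The labels of liver and soleus name a ribosomal RNA depletion kit and a directional kit, whereas the study's methods name a stranded mRNA kit. Whole reads could not be recovered from the values, so no count test was run. Values were tested as log2(value + 1) with limma 3.58.1 in R 4.3.3 (with a trend in the prior variance), for genes with at least 10 in as many libraries as the smallest group has, and the adjusted p threshold was 0.05 (Benjamini-Hochberg over all genes tested). All groups of a table shared 1 fit. Single genes were also tested by exact two-sided permutation of the log2 values. The scripts were tested on simulated data. Values were read with Python 3.11.15 and pandas 2.3.3.

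Named were members with an adjusted p under 0.05, the 2 highest members of each large subfamily in liver, the highest of the others, the 3 largest differences in each direction in each table, the 3 highest in each muscle table, genes of other lists under the threshold (up to 4 for each list), and Nr1i2, Nr1i3, Hnf4a and Por. Other genes in the text were chosen after their values were seen. Members and lists were chosen with earlier results of these data known. No source says that AML12 replicates were separate cultures, so p-values measure the spread between these libraries, which may be technical. The alternatives were other pseudocounts (0.5 and 5), no filter, quantile normalization, the cut-offs of the study applied to limma, and the replicate block. Further ones were only the groups compared, covariates for library numbers, and leaving out libraries.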

Additional observations from a re-analysis of the deposited data

Results flagged for a closer look

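Within groups of 5 livers or soleus muscles, 4 of 82 sets of values had a single sample far from the others, where chance gives about 1 in 20 (4.1 of 82). Cyp2d12 was lowest in Ut mouse 1, at 17.28, where the other 4 Ut livers had 26.7 to 28.7. Cyp2r1 was highest in HC mouse 4, at 75.73, where the other HC livers had 42.7 to 44.2. Cyp2u1 was highest in HC mouse 1, at 199.4, where the others had 70.8 to 89.7. Cyp3a13 was highest in Ut mouse 3, at 2611, where the others had 2056 to 2156. The 4 values came from 4 different mice.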

How the results depend on the processing

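The main count of members called was 0 in every comparison, and it stayed 0 in 294 recalculations and not in 5. Most main comparisons called 0 genes of any kind, so a count that stays at 0 says little about stability. The exceptions included 3 liver members and 1 gastrocnemius member (Cyp2e1, day 2) at the study's cut-offs applied to limma. The others were for siAcly against siC over the 4 treatments. They were 2 members with a covariate for library numbers 81 to 87 (Cyp2c68 and Cyp2j5), 1 with the number series (Cyp2c68), and 3 with the series and without both doubted libraries (Cyp3a13, Cyp2c65 and Cyp2c68). Leaving out any library gave 0 members called in every comparison. Of the named genes' values, 10 turned their sign, each on leaving out a library, and all were differences that had not passed the test. The ranges over the libraries left out were −0.1351 to 0.1938 for Cyp2r1, −0.0167 to 0.2345 for Cyp3a25, −0.0852 to 0.2852 for Cyp2u1 and −0.0167 to 0.1105 for Cyp2e1 in liver, −0.0062 to 0.0940 for Cyp2j6 in soleus, and −0.0202 to 0.2876 for Cyp2s1 in AML12. Same-numbered mice did not deviate together (correlations of 0.02 to 0.08 in liver and −0.11 to 0.40 in soleus, best with their own number in 1 of 10), and with the replicate block 0 members were called in liver and 0 in soleus. With 5 or fewer libraries per group, small changes of variable members could not be detected, and members under 10 normalised counts were not tested.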
